A study of Mus musculus with 8 samples.

Results

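Eif4ebp1 and Eif4ebp2 encode 4E-BP1 and 4E-BP2, small proteins that block the first step of cap-dependent translation. They were chosen by name and are 2 of the 15853 genes in the deposited comparison. The 8 poly(A) RNA-seq libraries came from primary macrophages grown from mouse bone marrow for 7 days in L929 conditioned medium, a source of the macrophage growth factor M-CSF. All cells then received 10 nM insulin, 25 mM glucose and 250 uM C16:0 (palmitate), and 24 h is the time given in the labels. The 4 control libraries had the genotype Mirc11fl/fl Mirc22fl/fl Lyz2+/+ and the 4 knockout libraries Mirc11fl/fl Mirc22fl/fl Lyz2Cre/Cre. Both groups thus carried floxed (loxP-flanked) copies of Mirc11 and Mirc22, clusters for the miRNAs 23, 27 and 24. Cre was present in knockout cells alone, where it replaced normal Lyz2, a myeloid gene, on both chromosomes. Loss of the miRNAs, presence of Cre and loss of lysozyme M cannot be told apart in this design. Neither the age of the mice nor pooling of animals is given in the sources used here. The labels do not tie each library to a separate animal, so the errors below measure spread among samples and may include technical spread.

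The cap at the 5′ end of an mRNA is bound by eIF4E, which then recruits the scaffold eIF4G and the helicase eIF4A to load ribosomes. A 4E-BP in its underphosphorylated form occupies the same surface of eIF4E as eIF4G and so prevents loading. The kinase mTORC1, which is activated by insulin and amino acids, phosphorylates 4E-BPs and releases eIF4E. In innate immune cells 4E-BPs are known for limiting the synthesis of selected proteins, among them the interferon regulator IRF7.

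The sequences printed here are miRNAs of the floxed clusters and places in both transcripts that could pair with them. A miRNA recognises its target mainly through its seed, bases 2 to 8, shown here in capitals (RefSeq, GRCm38.p6, 5′ to 3′). The sequences of miR-27a and miR-27b share one seed, and the other 2 miRNAs printed have seeds of their own.
mmu-miR-23a-3p: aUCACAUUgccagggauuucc
mmu-miR-27a-3p: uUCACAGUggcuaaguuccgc
mmu-miR-27b-3p: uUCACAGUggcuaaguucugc
mmu-miR-24-3p: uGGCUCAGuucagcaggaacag

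For each gene the longest 3′ UTR (GENCODE M21, GRCm38, the assembly of mm10) was searched on the mRNA strand for matches of 7 or 8 nucleotides to these seeds. Eif4ebp2 held 1 match for miR-23, 0 for miR-27 and 3 for miR-24. Eif4ebp1 held 0 for miR-23, 0 for miR-27 and 4 for miR-24. The matches that pair with the whole seed are printed below as DNA, 5′ to 3′, with the matched bases in capitals.
Eif4ebp2, miR-23: ggtttctgctacacAATGTGAAat
Eif4ebp2, miR-24: gcctctgaagaggaCTGAGCCgc
Eif4ebp1, miR-24: tggtcacctttcctCTGAGCCtg

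The miR-23 match of Eif4ebp2 is an 8-nucleotide one, which adds an A opposite the first base of the miRNA. It lies at chr10:61431958-61431965 on the minus strand in exon 3, starting 1832 bases after the stop codon of the 5306-nucleotide 3′ UTR. The miR-24 match of Eif4ebp2 lies at chr10:61432964-61432970, 827 bases after the stop codon. The other two miR-24 matches of Eif4ebp2, at 2524 and 3558 bases, are of the 7-nucleotide kind that pairs with bases 2 to 7 plus the A.

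Which of these matches a transcript contains depends on its form for Eif4ebp2 and on the annotation set for Eif4ebp1. A shorter protein-coding transcript of Eif4ebp2, also in GENCODE, has a 3′ UTR of 977 nucleotides. It keeps the miR-24 match at 827 bases and lacks the miR-23 match and the other two. For Eif4ebp1, the 3′ UTR of 1563 nucleotides in GENCODE runs 1018 nucleotides past the gene end in RefSeq. All 4 miR-24 matches of Eif4ebp1, at 985 to 1404 bases after the stop codon (chr8:27276096-27276521), lie in that extra stretch. The 545 nucleotides that both annotations share hold none of the 7- or 8-nucleotide matches searched.

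**Figure D1:**
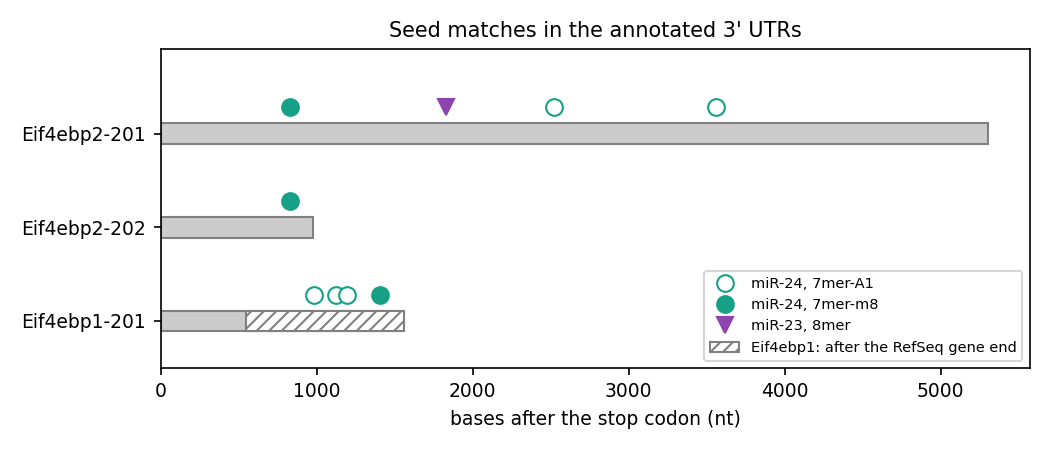
Seed matches along the annotated 3′ UTRs of both Eif4ebp2 transcripts and of Eif4ebp1; the x axis gives bases after the stop codon (nt). Triangles are miR-23 matches and circles miR-24 matches, filled where the whole seed pairs. The 1 miR-23 match is in the long Eif4ebp2 form, and all 4 Eif4ebp1 matches fall in the hatched stretch of 1018 nucleotides after the RefSeq gene end.

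Such matches are common in long UTRs. The 3′ UTR of Eif4ebp2 was longer than those of 96.1% of 13074 tested genes with an annotated 3′ UTR, and that of Eif4ebp1 was longer than 60.6%. An 8-nucleotide miR-23 match occurred in 6.96% of these genes, and in 17.7% of the 564 other genes whose 3′ UTR was within 1.2-fold of the length of Eif4ebp2. Of those 564 genes, 61.9% held a miR-23 match of 7 or 8 nucleotides and 57.4% a miR-24 match of that kind. For Eif4ebp1, 31.2% of 1784 genes of like UTR length held a miR-24 match of any of these kinds. A match is a description of letters and does not show binding.

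No header names the numerator of the deposited comparison. Its sign was read from Lyz2, the lysozyme M gene that carries the Cre insertion, at a log2 fold change of -9.10 (standard error, SE, 0.42) in the authors' deposited table. Lyz2 is therefore no check of the labels, and directions below rest on that reading. Among all genes with an adjusted p, 14619 in number, 3363 (23.0%) were called at an adjusted p under 0.05 by the authors' DESeq2 test, with 11.3% called higher and 11.7% called lower in the knockout. When all fold changes were centred by the ratio of summed group means (-0.06 log2), 70.9% of calls were higher in place of 49.1%. Those sums include Lyz2, whose group mean, derived from mean and fold change, went from 511449 to 935 normalized counts. How far Lyz2 moved the ratio was not tested. Centring on the median gene (-0.004 log2) gave 50.4% of calls higher. Values of single libraries were not used, because their 8 columns bear numbers that match no sample label. Each gene is therefore given by its mean normalized count over all libraries, its log2 fold change and the SE of that change, from 4 libraries against 4.

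Eif4ebp2 was higher in the knockout and Eif4ebp1 did not pass the test. Eif4ebp2 averaged 10941 normalized counts, and its log2 fold change was 0.52 (SE 0.09, 95% interval 0.33 to 0.70, adjusted p = 1.73e-06 by DESeq2) in the authors' deposited table. On the linear scale this was 1.43-fold, with an interval of 1.26 to 1.63. Eif4ebp1 averaged 1675 normalized counts, and its log2 fold change was -0.15 (SE 0.09, 95% interval -0.33 to 0.04, adjusted p = 0.268 by DESeq2) in the authors' deposited table. The interval for Eif4ebp1 runs from 0.796-fold to 1.03-fold, so the data leave room for a modest fall or for no difference. One of the pair was called, against 23.0% of all tested genes.

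Group means derived from the authors' deposited table, with equal group sizes, show the scale of these differences. Eif4ebp2 went from a derived mean of 9000 normalized counts in control cells to 12882 in knockout cells. Eif4ebp1 went from 1759 to 1591. In bulk RNA, a different share of expressing cells and a different level per cell cannot be told apart.

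**Figure D2:**
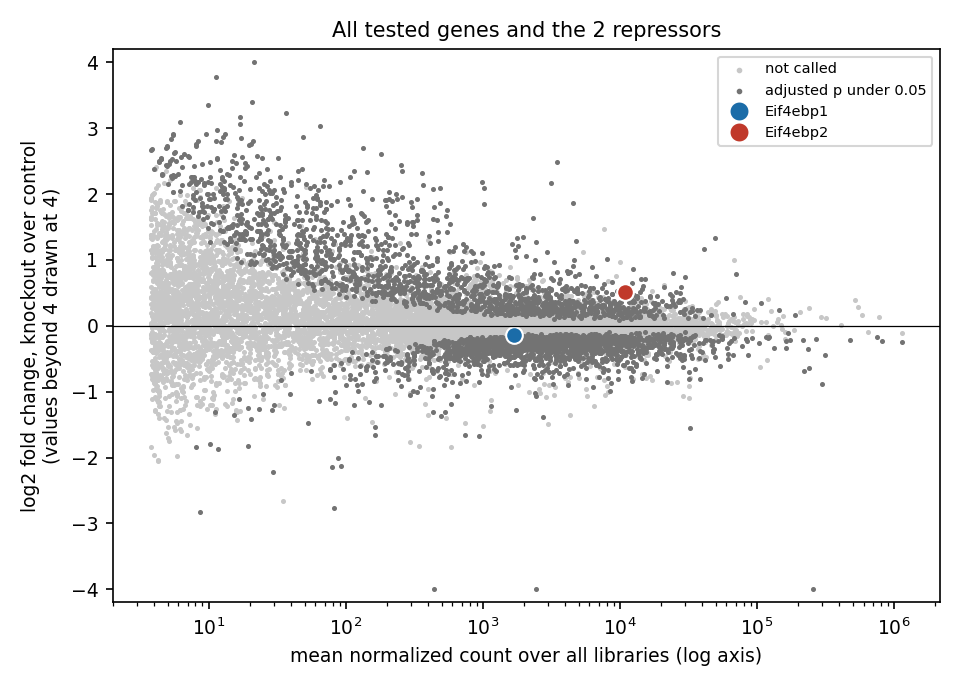
Log2 fold change of knockout over control (y axis) against the mean normalized count over all libraries (x axis, log scale) for the 14619 tested genes, with called genes in darker grey. Eif4ebp2 lies at 0.52 along the upper edge of genes of its abundance and Eif4ebp1 at -0.15 inside the uncalled band.

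The responses of the 2 repressors differed. The difference, Eif4ebp2 minus Eif4ebp1, was 0.66 on the log2 scale. Both genes were measured in the same libraries and their errors may be correlated, so the largest SE the difference can have, the sum of the 2 SEs, was used. That SE was 0.19 and gave a 95% interval of 0.29 to 1.03, which leaves out 0. In linear terms the Eif4ebp2 to Eif4ebp1 ratio was 1.58 times as high in the knockout, with an interval of 1.22 to 2.05. No p is attached to this value, which was computed without values per library.

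Set against genes of like abundance, Eif4ebp2 lay near the top and Eif4ebp1 in the body of the range. Among 720 genes with a mean within 1.25-fold of Eif4ebp2, 99.2% had a lower log2 fold change, and their median was -0.03. In that set 9.58% were called higher. Among 1325 genes within 1.25-fold of the Eif4ebp1 mean, 31.5% had a lower log2 fold change, and the median was -0.06. The SE was larger than that of 73.2% of like genes for Eif4ebp2 and 62.3% for Eif4ebp1, so neither gene was measured with unusual precision. Over the whole table, 39.2% of genes called higher had a smaller change than Eif4ebp2, and the median of all genes called higher was 0.70.

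Abundance was compared per kilobase of transcript, since a longer transcript yields more fragments per molecule. With the principal GENCODE transcripts, of 5784 nucleotides for Eif4ebp2 and 1997 for Eif4ebp1, the means were 1892 normalized counts per kb for Eif4ebp2 and 839 for Eif4ebp1. Eif4ebp2 was thus 2.26 times as abundant on the per-kb scale, against 6.53 times in uncorrected counts. By genotype the per-kb ratio was 1.77 in control and 2.80 in knockout cells. Which transcript forms these macrophages made was not measured, and the order of the levels depends on it. With the Eif4ebp1 transcript ended at the RefSeq gene end (979 nucleotides), the ratio was 0.866 in control and 1.37 in knockout cells. With the shorter Eif4ebp2 transcript (1422 nucleotides) in place of the long one, it was 7.19 and 11.4. Both of these lengths were chosen after seeing the data.

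**Figure D3:**
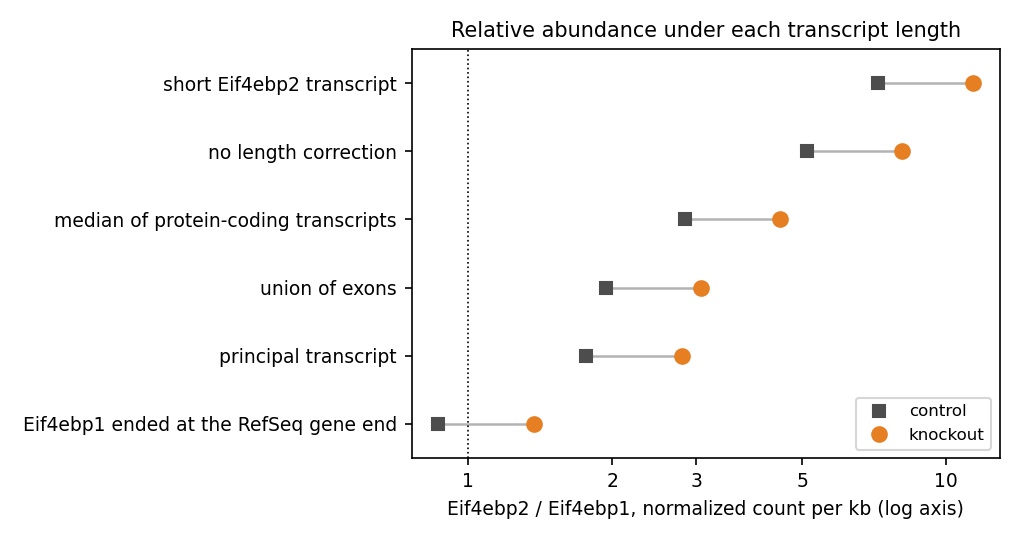
Ratio of Eif4ebp2 to Eif4ebp1 in normalized counts per kb (x axis, log scale) in control (squares) and knockout (circles) cells under 6 choices of transcript length (y axis). The ratio runs from 0.866 to 7.19 in control cells, while the step from control to knockout is the same 1.58-fold in each row because length cancels from it.

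Eif4ebp2 therefore made up a larger share of the repressor transcripts in the knockout. On the per-kb scale with principal transcripts, its share of the Eif4ebp1 plus Eif4ebp2 pool was 63.9% in control and 73.7% in knockout cells. The pool itself went from 2437 to 3024 normalized counts per kb, a ratio of 1.24. That ratio was 1.15 with the RefSeq end of Eif4ebp1 and 1.37 with the shorter Eif4ebp2 transcript, lengths chosen after seeing the data. These shares and sums are derived from group means and carry no error of their own. The 0.66 log2 difference given above is the shift of the Eif4ebp2 to Eif4ebp1 ratio, not of the shares or the pool. The pool ratio of 1.24, with principal transcripts, is 0.31 on the log2 scale.

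The target of both repressors is eIF4E. Its gene Eif4e was at 0.12 on the log2 scale (SE 0.06, adjusted p = 0.173 by DESeq2) in the authors' deposited table, which became 0.18 (adjusted p = 0.0263) with fold changes centred on the summed group means. On the per-kb scale with principal transcripts, Eif4ebp2 to Eif4e was 1.14 in control and 1.50 in knockout cells, and Eif4ebp1 to Eif4e was 0.643 and 0.535. Both repressors together stood at 1.78 times the Eif4e level in control and 2.03 times in knockout cells. These levels move with the transcript form too, in alternatives chosen after seeing the data that kept Eif4e at its principal transcript. With the RefSeq end of Eif4ebp1, Eif4ebp1 to Eif4e turned to above 1, at 1.31 in control and 1.09 in knockout cells. With that end, both repressors together stood at 2.45 times the Eif4e level in control and 2.59 times in knockout cells. With the shorter Eif4ebp2 transcript, they stood at 5.26 and 6.62 times that level. Transcript ratios give no measure of the proteins or of their phosphorylation. Eif4e2, a cap-binding relative that does not join eIF4G in the usual way, fell by 0.15 on the log2 scale (SE 0.04, adjusted p = 0.000901 by DESeq2) in the authors' deposited table. That call was lost after centring on the summed group means (adjusted p = 0.0774). Eif4e3, another cap-binding relative, was at -0.29 (SE 0.09, adjusted p = 0.00469 by DESeq2) in the authors' deposited table and kept its call after that centring (adjusted p = 0.0336).

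Eif4ebp3, the remaining 4E-BP gene, was scarce. It had a mean normalized count of 30.9, or 41.5 per kb, against 839 per kb for Eif4ebp1 and 1892 per kb for Eif4ebp2. Eif4ebp3 was called higher, by 1.87 on the log2 scale (SE 0.49, adjusted p = 0.00168 by DESeq2) in the authors' deposited table. Its annotated 3′ UTR of 298 nucleotides held 0 matches to the 3 seeds. The annotation marks Eif4ebp3 as an overlapping locus, so its count is uncertain.

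Other proteins that bind eIF4E or compete at the cap were called about as often as tested genes in general. Of 10 listed genes, Eif4ebp3 included, 2 were called higher and 0 lower, beside 23.0% called over all tested genes, with a median log2 fold change of -0.05 beside 0.00 over all tested genes. Angel1, an eIF4E-interacting protein of the deadenylase fold, was called higher at 0.71 (SE 0.13, adjusted p = 1.73e-06 by DESeq2) in the authors' deposited table. Eif4enif1, which encodes the eIF4E transporter 4E-T, was at -0.14 (SE 0.06, adjusted p = 0.0501 by DESeq2) in the authors' deposited table. Cyfip1 (-0.08), Cyfip2 (-0.27), Gemin5 (0.01), Gigyf1 (-0.20), Gigyf2 (-0.03), Larp1 (-0.09) and Ddx3x (0.02) had adjusted p-values between 0.0704 and 0.923 by DESeq2 in the authors' deposited table. The uncalled value of Gigyf2 turned to 0.04 after centring on the summed group means. Apart from the less abundant Eif4ebp3 and Angel1, Eif4ebp2 had the largest change among the 15 measured genes plotted here, Eif4e genes and Eif4ebp1 included.

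**Figure D4:**
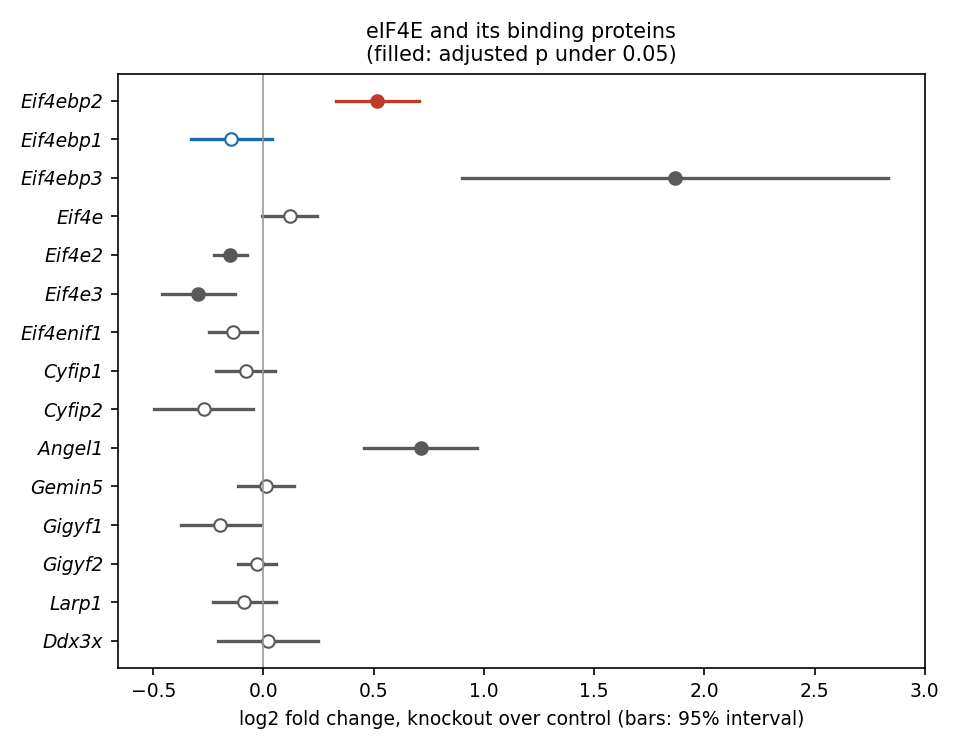
Log2 fold change of knockout over control (x axis) with its 95% interval for the 3 4E-BP genes, the Eif4e family and other eIF4E-binding proteins, filled where the adjusted p is under 0.05. Eif4ebp2 is at 0.52 and Eif4ebp1 at -0.15, and Eif4ebp3 at 1.87 has the widest interval.

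The rest of the machinery was described by lists, each beside the 11.3% of all tested genes called higher and 11.7% called lower. Of 9 genes for the eIF4F scaffold, helicase and their partners, 2 were called higher and 0 lower (median 0.02). They were the scaffold gene Eif4g1 (0.18, SE 0.05) and the helicase gene Eif4a1 (0.17, SE 0.06) in the authors' deposited table. Both changes were smaller than that of Eif4ebp2. Of 8 genes for eIF4E kinases and 4E-BP turnover, 0 were called higher and 2 lower (median -0.01). These were Mknk1, a kinase of eIF4E (-0.23, SE 0.06), and Csnk1e, casein kinase 1 epsilon (-0.34, SE 0.09), in the authors' deposited table. Klhl25, the adaptor through which the CUL3 ligase removes unbound 4E-BP1, was at 0.00 (SE 0.09, adjusted p = 0.980 by DESeq2) in the authors' deposited table. With fold changes centred on the summed group means, 2 of the 8 were called higher and 2 lower in place of 0 and 2. The 2 gained were the eIF4E kinase gene Mknk2 (0.18, adjusted p = 0.00653 after centring) and Cul3 (0.11, adjusted p = 0.0411 after centring).

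Upstream of 4E-BP phosphorylation, 13 genes of mTORC1, its activators and S6 kinases had 0 called higher and 4 lower (median -0.05). The 13 include inhibitory subunits of mTORC1, Akt1s1 among them, so they are not activators alone. The 4 were Rhebl1, Rragb, Akt1s1 and Rps6kb2, of which Akt1s1 (adjusted p = 0.0504) and Rps6kb2 (adjusted p = 0.105) lost their calls with that centring. Rragb was scarce, with a mean normalized count of 23.3. Rragd, a Rag GTPase gene, gained a call higher (0.28, adjusted p = 0.0141 after centring), so the split became 1 higher and 2 lower. Mtor itself was at -0.15 (SE 0.08, adjusted p = 0.145 by DESeq2) in the authors' deposited table. Of 15 other genes that restrain mTORC1, 5 were called higher and 2 lower (median 0.08). The 5 were Sesn2 (0.90, SE 0.07), Tsc1 (0.43, SE 0.08), Ddit4 (0.64, SE 0.12), Sesn3 and Ddit4l in the authors' deposited table. Ddit4l was scarce, with a mean normalized count of 29.6. Stk11, the kinase LKB1, and Nprl2, a GATOR1 subunit, were the 2 called lower.

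Eif4ebp1 is known as a direct target of ATF4, the transcription factor of amino acid stress. Of 29 measured genes in the list of Atf4 and its targets, 4 were called higher and 2 lower, with a median of -0.02. Atf4 itself was at -0.24 (SE 0.12, adjusted p = 0.122 by DESeq2) in the authors' deposited table, and Eif4ebp1 lay at -0.15. Sesn2 and Ddit4, which are also on the list of mTORC1 brakes, the serine synthesis gene Psat1 (0.53, SE 0.17) and the proline synthesis gene Pycr1 (1.46, SE 0.48) were called higher in the authors' deposited table. Pycr1 was scarce, with a mean normalized count of 12.1. The cystine transporter gene Slc7a11 (-0.68, SE 0.23) and Gars, a tRNA synthetase gene (-0.14, SE 0.04), were called lower in the authors' deposited table, and Gars lost its call after centring on the summed group means (adjusted p = 0.210). The tRNA synthetase gene Aars (0.23, adjusted p = 0.00543 after centring) and the lipoprotein receptor gene Vldlr (0.86, adjusted p = 0.0386 after centring) gained calls higher. The list then had 6 called higher and 1 lower.

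Transcripts known for sensitivity to eIF4E at the level of translation were listed for their mRNA level alone. Of 13, 1 was called higher and 2 lower, with a median of 0.00. Odc1, of polyamine synthesis, was at 0.41 (SE 0.11), Mcl1, a survival factor gene, at -0.36 (SE 0.06) and Ccnd3, cyclin D3, at -0.52 (SE 0.14) in the authors' deposited table. Irf7 was at -1.06 with a wide SE of 0.66 (adjusted p = 0.247 by DESeq2) in the authors' deposited table. Translation of these transcripts was not measured.

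**Figure D5:**
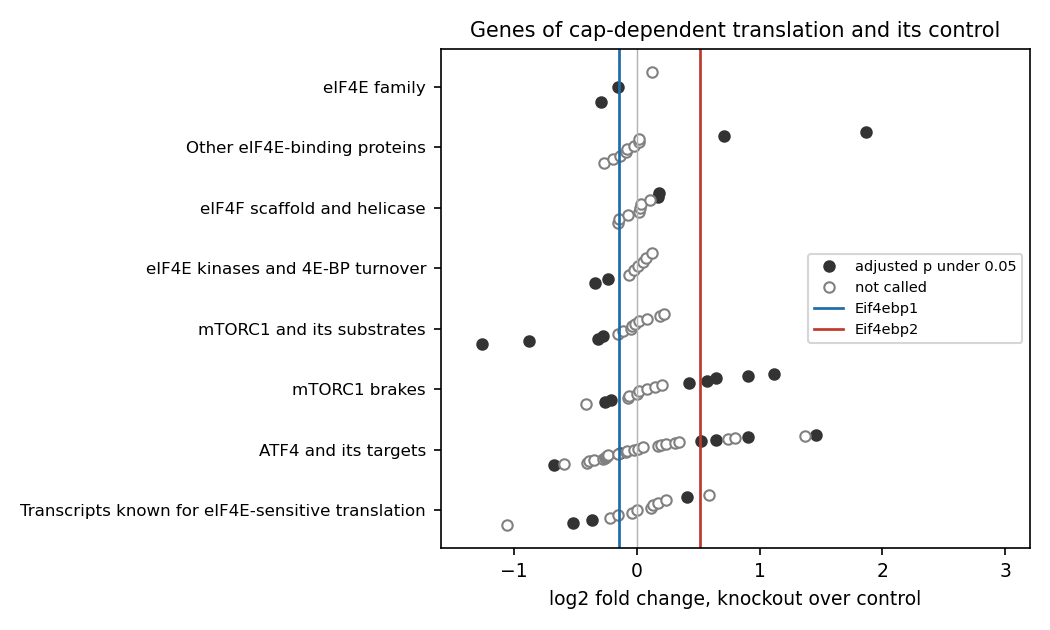
Log2 fold change of knockout over control (x axis) of each gene in 8 lists of cap-dependent translation and its control (y axis), filled where the adjusted p is under 0.05. The vertical lines mark Eif4ebp1 at -0.15 and Eif4ebp2 at 0.52; every called eIF4F and eIF4E family gene lies to the left of the Eif4ebp2 line.

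Both members lie on a chromosome that carries an altered locus, at a long distance. Eif4ebp1 (ENSMUSG00000031490.6, chr8:27260329-27276674, plus strand) has 3 exons in its principal transcript and is 56.9 Mb from the Mirc11 precursors. Eif4ebp2 (ENSMUSG00000020091.15, chr10:61428491-61452661, minus strand) also has 3 exons and is 55.8 Mb from Lyz2. An intronic RNA gene, Gm48086, is annotated inside Eif4ebp2 on the same strand. Within 500 kb of Eif4ebp2, 1 of 9 tested genes was called. That was Adamts14, a procollagen protease gene with a mean normalized count of 27.1, at 1.01 (SE 0.38) in the authors' deposited table. Lying nearest to Eif4ebp2, Lrrc20 (-0.03, SE 0.09) and Pald1 (-0.54, SE 0.46), were not called in the authors' deposited table. Within 500 kb of Eif4ebp1, 3 of 6 tested genes were called. Erlin2, of the endoplasmic reticulum (0.60, SE 0.06), and the scarce Adgra2 (1.96, SE 0.59) were higher and Rab11fip1, of vesicle recycling (-0.20, SE 0.08), was lower in the authors' deposited table. Within 2 Mb the shares called were 19.5% of 41 genes around Eif4ebp2 and 28.6% of 21 around Eif4ebp1, beside 23.0% overall.

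Cell identity was checked because other cells in the culture would add their own transcripts. Of 12 macrophage markers, 12 were in the table, with mean normalized counts from 158 to 256192. Of these, 1 was called higher and 5 lower, Lyz2 included. Without Lyz2, the summed derived level of the other 11 went from 660566 normalized counts in control to 640497 in knockout cells. That sum leaned on 1 uncalled gene, the mannose receptor gene Mrc1 (0.99, SE 0.63, adjusted p = 0.255 by DESeq2) in the authors' deposited table. Without Mrc1, left out after its value was seen, the remaining 10 went from 615010 to 549711, a ratio of 0.894. The M-CSF receptor gene Csf1r (-0.33, SE 0.09), Cd68 (-0.26, SE 0.07), the Fc receptor gene Fcgr1 (-0.71, SE 0.24) and the transcription factor gene Spi1 (-0.34, SE 0.10) were called lower, and Adgre1, a macrophage surface receptor gene (0.25, SE 0.07), was called higher in the authors' deposited table. Whether this shift in macrophage markers had a part in the differences of either repressor was not tested. Of 11 stromal markers in the table, 10 were called higher and 0 lower (median 1.86), and their summed level went from 1639 to 6104. Those with the smallest adjusted p were Postn (1.86, SE 0.22), Acta2 (1.43, SE 0.18), Col1a2 (2.18, SE 0.27) and Fbn1 (2.03, SE 0.26) in the authors' deposited table. None of these 11 had a mean of 0; their means ran from 20.4 (Fap) to 1012 (Col1a1). The stromal sum was thus 4465 normalized counts higher in the knockout, and Eif4ebp2 alone 3882 higher. Whether stromal cells had a part in the Eif4ebp2 difference, or in the differences of Eif4ebp3, Adamts14 and Adgra2, was not tested. Of 12 markers of other blood cells, 4 were in the table, 2 had an adjusted p and 0 were called.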

How the data were processed

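Groups came from the sample titles. The submitters' processing notes list mm10 and the tools DESeq2, Salmon, cutadapt and FastQC; their settings are not given in the sources used. Per the file headers, the deposited signal is the authors' mean normalized count, and the log2 values are the authors' fold change and its SE. The deposited score is the authors' Wald statistic, and the deposited p-values, raw and adjusted, are also theirs. A recomputed Benjamini-Hochberg adjustment differed by at most 5.66e-09. The 8 columns of values per library match no sample label and were not used, so depth per library is unknown here and no refit was made.

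Intervals are the log2 fold change with 95% normal limits from its SE. Group means were derived from mean and fold change. Symbols matched 1 GENCODE M21 gene for 15187 genes (95.8%). Where several transcripts were flagged as principal, the longest was used. Seeds came from RefSeq. Named genes were the members, all eIF4E-family and eIF4E-binding genes, up to 4 per other list by adjusted p, Lyz2 and genes called within 500 kb. Named outside that rule, with their values seen, were Sesn3, Ddit4l, Nprl2, Pycr1, Slc7a11, Klhl25, Mtor, Atf4, Irf7, Lrrc20, Pald1, Fap, Col1a1, Aars, Vldlr, Cul3, Rragd, Mrc1, Fcgr1 and Spi1. The members and lists were chosen with earlier results of these data known. Alternatives comprised filters, centring, a stricter threshold, transcript lengths and windows. Steps used Python 3.11.15 and scipy 1.17.1 and were tested on simulated data.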

Additional observations from a re-analysis of the deposited data

How the results depend on the processing

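Eif4ebp2 stayed called higher (log2 fold change 0.52 to 0.58, adjusted p from 4.98e-08 to 1.87e-06) and Eif4ebp1 stayed uncalled (-0.15 to -0.08, adjusted p from 0.247 to 0.580) in all 5 alternatives run on each: no filter, a mean of at least 50, 2 ways of centring and a threshold of 0.01. The SE of their difference was 0.13 for independent genes. The Eif4ebp2 to Eif4ebp1 ratio per kb, 2.26 with principal transcripts, was 3.62 with median lengths, 2.48 with the union of exons, 6.53 without length correction, 1.11 with the RefSeq end of Eif4ebp1 and 9.17 with the short Eif4ebp2 form. In the same order the Eif4ebp2 share of the pool was 73.9%, 66.0%, 83.7%, 46.4% and 87.8% in control and 81.8%, 75.5%, 89.0%, 57.8% and 91.9% in knockout cells, the length alone making these differences. At a threshold of 0.01 the calls fell to 1 in the eIF4F list, 2 in the mTORC1 list and 2 in the ATF4 list, by construction. The list of mTORC1 brakes then had 3 called higher and 2 lower in place of 5 and 2. At a mean of at least 50 it had 4 higher and 2 lower. Centring on the summed group means gave 4 calls in the list of eIF4E kinases and 4E-BP turnover (the cause was not tested). Centring on the median gene left that list at 0 higher and 2 lower. It left the eIF4E family at 0 and 2 and the mTORC1 list at 0 and 4, and gave 5 and 2 in the ATF4 list. Around Eif4ebp1, 50% of 6 genes were called within 1 Mb and 28.6% within 2 Mb, and around Eif4ebp2 20% and 19.5%. The short Eif4ebp2 transcript held 1 seed match. Over all genes, 2339 were higher and 960 lower with centring on the summed group means, and 1047 and 1009 at a threshold of 0.01. The RefSeq end and the short form were chosen after seeing these values. No paired analysis was possible because the numbers heading the library columns match no replicate label. For the same reason, refits without single libraries, with other pseudocounts or with other tools were not run, and counting error is unknown.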
